A study of Mus musculus with 27 samples.

Results

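Transcripts of 9 genes that encode repressors of germline genes were followed in mouse embryos that lack DNMT3B, 1 of the enzymes that place methyl groups on unmethylated DNA. The genes are E2f6, Mga, Max, L3mbtl2, Pcgf6, Cbx3, Ehmt1, Ehmt2 and Setdb1. They were chosen by name, as the rows of the RNA-Seq table with these symbols, and make up 9 of the 24065 genes in the table.

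Gene expression was profiled in whole embryos at embryonic day 8.5 (E8.5) with RNA-Seq libraries of 3 wild-type (WT) embryos and 3 Dnmt3b-/- littermates of the C57BL/6 background, with 1 library for each embryo. The Dnmt3b-/- embryos came from an intercross of heterozygous mice and carried 2 copies of a catalytically inactive allele, which had been made by deleting a floxed Dnmt3b allele with a Cre under the ACTB promoter. Each embryo is a biological replicate. Xist, an RNA of X inactivation in females, was counted 18577, 4 and 15248 times in WT embryos 1, 2 and 3. It was counted 11, 18781 and 3 times in Dnmt3b-/- embryos 1, 2 and 3. Sex was thus mixed in both genotypes and not balanced between them. Libraries of DNA methylation were not analysed here. In a whole embryo, fewer cells of a type and less RNA per cell cannot be told apart.

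E2F6 is a member of the E2F family of transcription factors that represses rather than activates. It binds DNA within a variant Polycomb complex called PRC1.6, in which MGA serves as the scaffold and pairs with MAX on E-boxes, L3MBTL2 and PCGF6 are further core subunits, and CBX3 (HP1γ) binds histone H3 methylated at lysine 9 (H3K9). EHMT1 (GLP) and EHMT2 (G9a) form a heterodimer that dimethylates H3K9, and SETDB1 trimethylates it. Cells that lose such factors transcribe meiotic and other germline genes that somatic cells keep silent, often from promoters that DNA methylation silences as well.

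The sites that bring this complex to DNA are short, and 7 promoters show them below. The sequences are those of RefSeq on the build GRCm38.p6, read 5′ to 3′ on the strand of the gene, from 250 bases before a start of transcription to the first 30 bases after it. Capitals mark the letters GCGGGA of an E2F site, which read TCCCGC on the other strand, and the E-box CACGTG, to which dimers with MAX bind. Both strands were searched, and the E-box reads the same on each. E2f6 (chr12:16810715-16810994, plus strand) and Max (chr12:76962219-76962498, minus strand) are shown because they were the members that rose. Slc25a31 (chr3:40708621-40708900, plus strand), Mael (chr1:166238715-166238994, minus strand), Stag3 (chr5:138280259-138280538, plus strand), Tuba3a (chr6:125286052-125286331, minus strand) and Taf7l (chrX:134476461-134476740, minus strand) are germline genes, which are described at the end.
E2f6: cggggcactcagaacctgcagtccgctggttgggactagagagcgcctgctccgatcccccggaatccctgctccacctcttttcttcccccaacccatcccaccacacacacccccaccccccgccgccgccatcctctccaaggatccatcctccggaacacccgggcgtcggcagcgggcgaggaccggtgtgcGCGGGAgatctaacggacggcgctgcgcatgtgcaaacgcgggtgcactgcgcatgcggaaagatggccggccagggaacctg
Max: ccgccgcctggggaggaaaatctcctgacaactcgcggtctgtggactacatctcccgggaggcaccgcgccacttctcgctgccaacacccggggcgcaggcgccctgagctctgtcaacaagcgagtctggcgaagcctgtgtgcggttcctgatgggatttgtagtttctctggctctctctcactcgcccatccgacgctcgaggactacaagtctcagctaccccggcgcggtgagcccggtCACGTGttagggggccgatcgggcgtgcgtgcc
Slc25a31: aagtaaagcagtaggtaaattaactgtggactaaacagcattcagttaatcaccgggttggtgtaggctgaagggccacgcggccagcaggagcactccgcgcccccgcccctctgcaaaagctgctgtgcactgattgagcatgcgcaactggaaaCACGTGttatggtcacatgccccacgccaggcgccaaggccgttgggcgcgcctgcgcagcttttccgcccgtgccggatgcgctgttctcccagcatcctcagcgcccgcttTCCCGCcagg
Mael: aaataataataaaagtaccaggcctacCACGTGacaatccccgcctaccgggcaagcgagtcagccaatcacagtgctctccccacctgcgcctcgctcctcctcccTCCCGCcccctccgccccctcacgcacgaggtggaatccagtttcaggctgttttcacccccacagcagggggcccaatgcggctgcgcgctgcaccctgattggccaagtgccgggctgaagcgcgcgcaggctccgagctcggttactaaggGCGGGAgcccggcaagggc
Stag3: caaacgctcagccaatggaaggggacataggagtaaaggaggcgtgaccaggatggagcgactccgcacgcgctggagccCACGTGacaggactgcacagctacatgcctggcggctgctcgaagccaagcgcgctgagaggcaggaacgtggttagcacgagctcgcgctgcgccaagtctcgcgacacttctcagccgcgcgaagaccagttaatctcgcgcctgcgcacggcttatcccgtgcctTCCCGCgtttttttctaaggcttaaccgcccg
Tuba3a: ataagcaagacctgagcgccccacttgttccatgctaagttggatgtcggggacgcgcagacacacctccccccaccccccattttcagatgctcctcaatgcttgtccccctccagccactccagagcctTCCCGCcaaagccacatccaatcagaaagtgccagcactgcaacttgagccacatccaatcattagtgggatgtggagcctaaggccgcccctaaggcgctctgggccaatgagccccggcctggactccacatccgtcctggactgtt
Taf7l: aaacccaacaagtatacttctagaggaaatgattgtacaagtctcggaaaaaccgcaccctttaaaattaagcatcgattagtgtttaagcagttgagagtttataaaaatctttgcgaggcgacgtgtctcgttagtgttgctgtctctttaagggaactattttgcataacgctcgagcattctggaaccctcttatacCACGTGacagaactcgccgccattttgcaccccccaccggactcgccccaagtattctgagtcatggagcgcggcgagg
The promoter of E2f6 held an E2F site that begins 53 bases before the start, and the promoter of Max held an E-box that begins 3 bases before it. Over the full windows of 300 bases, 3 of the 9 members (E2f6, Ehmt1 and Ehmt2) held GCGGGA and 2 (Max and Ehmt2) held CACGTG. Among the 11191 tested genes for which RefSeq gave a promoter, 4396 held the E2F site and 1292 the E-box. A match of letters is a description of the window and not a measured binding site.

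The 6 libraries held between 41489332 and 58470286 counts on genes. Dnmt3b, the gene that was inactivated, was counted 9197, 12195 and 7120 times in WT embryos 1, 2 and 3 and 4068, 3904 and 4196 times in the Dnmt3b-/- embryos, with no overlap. Its log2 fold change was -1.04 ± 0.27 (SE; adjusted p = 0.0169, edgeR quasi-likelihood test with Benjamini-Hochberg adjustment). WT embryo 2 had the highest level, and without it the log2 fold change was -0.61 (adjusted p = 0.0026), and the call was lost without Dnmt3b-/- embryo 1 (adjusted p = 0.0608), 2 (0.0613) or 3 (0.0555). Exons outside the deletion are counted too, so that this is a check of the labels and not a measure of the protein. Of 5 marker lists, that of the 6 embryonic tissue markers was present in every embryo, with a summed level of 65.5 to 98.8 FPKM (counts per kilobase of exon, scaled by library size) and T, a gene of the primitive streak and notochord, as its most abundant member. Within this list Nkx2-5, a gene of the heart, was called lower (log2 fold change -0.79, adjusted p = 0.0149) and Sox1, a gene of the neural plate, higher (0.54, adjusted p = 0.0247, edgeR quasi-likelihood test), both without overlap, and their part in the values below was not tested. The 6 markers of yolk sac endoderm summed to 317, 960 and 144 FPKM in WT embryos 1, 2 and 3 and to 334, 200 and 91.6 FPKM in the Dnmt3b-/- embryos, with Apoa1 most abundant, and 1 of them (Amn) was called lower. The 6 primitive erythroid markers, led by Hbb-bh1, summed to 397 to 2249 FPKM in WT and 504 to 1441 FPKM in Dnmt3b-/- embryos. The 6 primordial germ cell markers, led by Tfap2c, summed to between 5.76 and 12.1 FPKM, the highest in Dnmt3b-/- embryo 3. Among them Dppa3 had normalized counts of 7.13, 23.0 and 16.8 in WT and 34.1, 21.0 and 172 in Dnmt3b-/- embryos, which overlapped (log2 fold change 2.29, adjusted p = 0.0637, edgeR quasi-likelihood test). Of the 6 markers of trophoblast and decidua, led by Plac1, 3 (Tpbpa, Prl3d1 and Prl8a2) were at 0 counts in every embryo. WT embryo 2 had the most yolk sac RNA, and none of the calls on members made below was lost without it. The part of yolk sac RNA in the values of the members was not tested.

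All 9 members were transcribed in every embryo, and their levels in the WT embryos lay between the 73.1st and the 98.5th percentile of the 15114 genes that were tested. Per exon length, Cbx3 was by far the most abundant, with 275 ± 7.0 FPKM (SD, n = 3). It was followed by Ehmt1 (33.8 ± 1.91 FPKM), Ehmt2 (33.6 ± 2.33 FPKM), Setdb1 (30.9 ± 1.47 FPKM), Max (25.1 ± 2.03 FPKM), Pcgf6 (23.3 ± 1.80 FPKM), Mga (19.6 ± 1.80 FPKM), E2f6 (18.6 ± 0.576 FPKM) and L3mbtl2 (16.6 ± 0.93 FPKM). In this order the 3 histone methyltransferase genes overlapped their neighbours between embryos, as did Max with Pcgf6, Pcgf6 with Mga and Mga with E2f6. Cbx3, the step from Setdb1 to Max and the step from E2f6 to L3mbtl2 did not overlap.

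The order differed in Dnmt3b-/- embryos. Cbx3 stayed first at 302 ± 11.1 FPKM, and Max stood second at 46.4 ± 7.35 FPKM, above Setdb1 (31.6 ± 0.361 FPKM) with no overlap. Ehmt2 stood eighth at 20.8 ± 1.36 FPKM, and L3mbtl2 remained last at 9.69 ± 1.26 FPKM.

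Of the 9 members, 2 rose and 2 fell between WT and Dnmt3b-/- embryos, and 5 did not pass the test. Max and E2f6, both DNA-binding proteins, were higher, and L3mbtl2 and Ehmt2 were lower. Genes were called here at an adjusted p below 0.05 of the edgeR quasi-likelihood test. By the same rule 35.7% of all 15114 tested genes were called, 17.6% higher and 18.1% lower, so that 4 of 9 members (44.4%) is close to that background. No member changed more than 2-fold. Of all tested genes, 5.9% were called and also changed more than 2-fold (2.12% higher and 3.78% lower). The 2 genotypes did not overlap for 6 of the 9 members, 3 higher and 3 lower, beside 51.8% of all tested genes (25.3% higher and 26.5% lower).

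**Figure D1:**
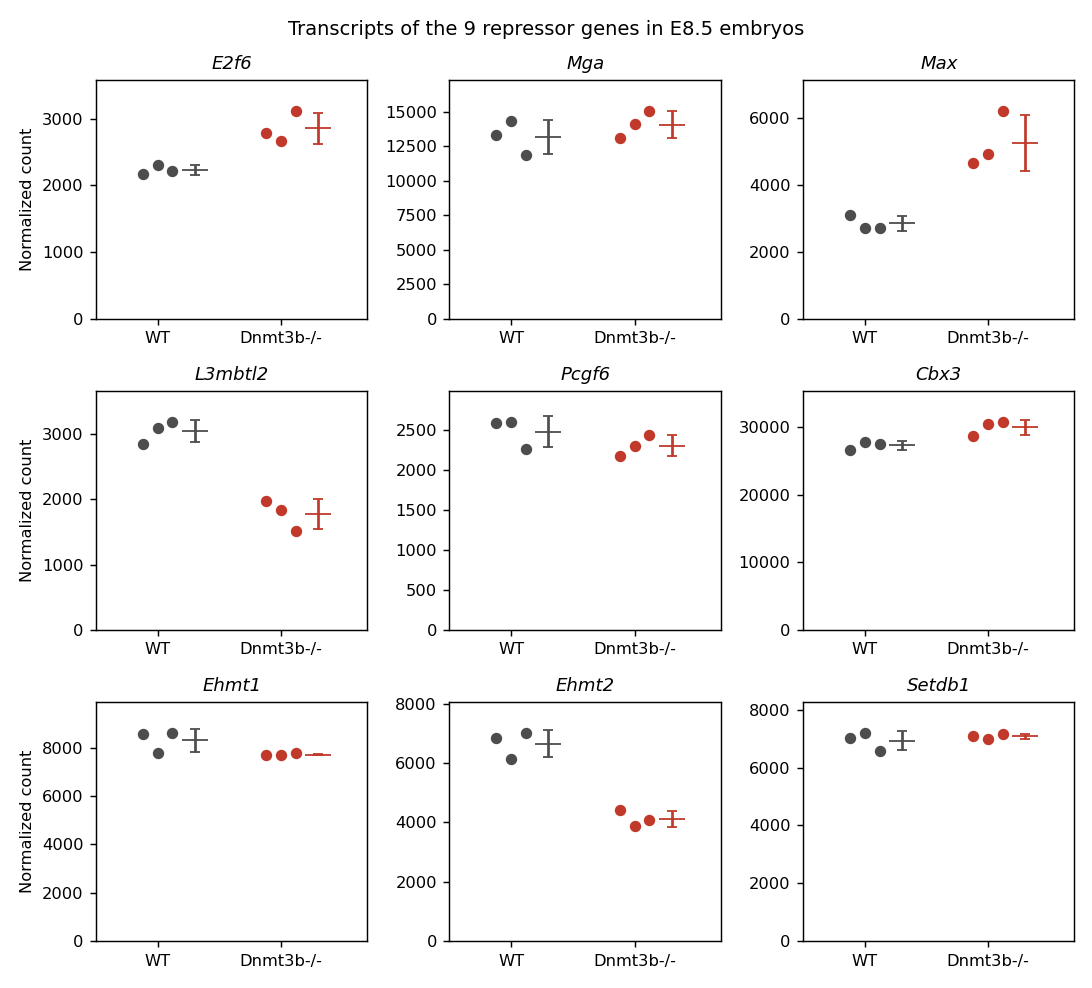
Normalized count (raw count divided by the effective library size relative to the 6 libraries, vertical axes from 0) of each of the 9 repressor genes in 3 WT (grey) and 3 Dnmt3b-/- (red) embryos at E8.5. Each point is 1 embryo, and the bar beside the points is the mean with the SD. Max lies between 2710 and 3108 in WT and between 4646 and 6202 in Dnmt3b-/- embryos, and L3mbtl2 and Ehmt2 are lower in every Dnmt3b-/- embryo than in any WT embryo.

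Max encodes the obligate partner of MYC proteins, of their antagonists and of MGA. Its normalized counts were 3108, 2710 and 2710 in WT embryos 1, 2 and 3 and 4646, 4910 and 6202 in Dnmt3b-/- embryos 1, 2 and 3. Every Dnmt3b-/- embryo was above every WT embryo, and embryo 3 was the highest. The rise was 1.85-fold, a log2 fold change of 0.89 ± 0.12 (SE; adjusted p = 0.00126, edgeR quasi-likelihood test), which is larger than that of 86.7% of all tested genes. With each embryo left out in turn it stayed between 0.76 and 0.98.

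Mga encodes the scaffold of PRC1.6 that pairs with MAX on E-boxes. Its normalized counts were 13287, 14300 and 11891 in WT embryos and 13075, 14083 and 15063 in Dnmt3b-/- embryos, so that the genotypes overlapped. The log2 fold change of 0.10 had a 95% interval of -0.11 to 0.30 (adjusted p = 0.436, edgeR quasi-likelihood test). The ratio of Max to Mga in FPKM was 1.29 ± 0.143 (SD, n = 3) in WT embryos and 2.20 ± 0.205 in Dnmt3b-/- embryos. It ran from 1.12 to 1.39 in WT and from 2.07 to 2.44 in Dnmt3b-/- embryos. This and the other ratios of FPKM given here were not corrected for the trend on GC content and length described below.

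E2f6 had normalized counts of 2171, 2307 and 2216 in WT embryos and 2794, 2662 and 3119 in Dnmt3b-/- embryos. The 3 WT embryos lay close together, and all Dnmt3b-/- embryos were above them. E2f6 rose 1.28-fold, a log2 fold change of 0.36 ± 0.09 (SE; adjusted p = 0.0129, edgeR quasi-likelihood test). That is a small change, as 49.2% of all tested genes changed less. The call was lost without WT embryo 1, with a log2 fold change of 0.34 and an adjusted p of 0.0546 by the same test.

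E2f6 was not the main E2F gene of the embryo. It made up 15.2% ± 1.09 (SD, n = 3) of the summed FPKM of E2f1 to E2f8 in WT embryos and 16.2% ± 0.683 in Dnmt3b-/- embryos, a difference of 1.00 percentage point (two-sided exact permutation test, p = 0.3, adjusted p = 0.4 over the 4 shares compared here). With 3 embryos against 3 this test cannot give a p below 0.1. E2f5, which encodes a repressor that works with pocket proteins, had the largest share, with 37.7% ± 1.09 in WT and 40.5% ± 1.4 in Dnmt3b-/- embryos, followed by E2f4 with 20.9% ± 0.491 and 19.2% ± 1.10. The tested genes whose pattern over the 6 embryos was most like that of E2f6 were Swap70, Dnajb6 and Sdhaf2, with root mean square differences of 0.0193, 0.0288 and 0.0303 in centred log2 counts scaled by library size.

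L3mbtl2 encodes a PRC1.6 subunit with MBT domains, which bind histones and compact chromatin. Its normalized counts were 2853, 3093 and 3183 in WT embryos and 1970, 1842 and 1521 in Dnmt3b-/- embryos. The genotypes did not overlap, and Dnmt3b-/- embryo 3, the highest for Max, was the lowest here. The level was 0.584 of that in WT, a log2 fold change of -0.78 ± 0.11 (SE; adjusted p = 0.00158, edgeR quasi-likelihood test). The exons of L3mbtl2 share 111 bp with Chadl on the opposite strand, and Chadl was counted between 0 and 28 times in any embryo.

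Pcgf6 encodes the PCGF protein that sets PRC1.6 apart from the other PRC1 complexes. Its normalized counts were 2578, 2594 and 2255 in WT embryos and 2173, 2292 and 2435 in Dnmt3b-/- embryos, which overlapped. The log2 fold change of -0.11 had a 95% interval of -0.31 to 0.10 (adjusted p = 0.395, edgeR quasi-likelihood test). The ratio of L3mbtl2 to Pcgf6 in FPKM was 0.715 ± 0.0908 (SD, n = 3) in WT and 0.450 ± 0.0824 in Dnmt3b-/- embryos, with 0.640 the lowest WT value and 0.524 the highest Dnmt3b-/- value.

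The share of Pcgf6 in the transcripts of the 6 PCGF genes also depends on the other 5 genes. Pcgf6 gave 33.1%, 36.3% and 29.6% of the summed PCGF FPKM in WT embryos 1, 2 and 3 and 22.5%, 22.5% and 23.7% in Dnmt3b-/- embryos, with no overlap. The difference was -10.06 percentage points (two-sided exact permutation test, p = 0.1, the smallest that this design can give, adjusted p = 0.2), and -6.10 points when the share was taken of raw counts without division by length. Bmi1 (Pcgf4), which defines a canonical PRC1 complex, made up 31.5% ± 5.25 (SD, n = 3) of the sum in WT and 45.7% ± 1.43 in Dnmt3b-/- embryos.

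Cbx3 had normalized counts of 26558, 27886 and 27576 in WT embryos and 28742, 30515 and 30773 in Dnmt3b-/- embryos. The Dnmt3b-/- embryos were all higher, by 1.10-fold on average, but the log2 fold change of 0.13 ± 0.06 (SE; 95% interval -0.01 to 0.28) did not pass the test (adjusted p = 0.138, edgeR quasi-likelihood test). Its share of the 3 HP1 genes was 56.7% ± 1.34 (SD, n = 3) in WT and 56.8% ± 1.01 in Dnmt3b-/- embryos (two-sided exact permutation test, p = 0.9, adjusted p = 0.9), beside 28.3% ± 0.916 and 28.6% ± 0.901 for Cbx5 and 15.0% ± 0.433 and 14.6% ± 0.153 for Cbx1. RefSeq names 6 pseudogenes of Cbx3, and reads that they share with it may be split, so that its level is uncertain.

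Ehmt2 fell and Ehmt1 was not called, a difference that was not seen once a trend on GC content and length was removed, as described below. Ehmt2 had normalized counts of 6824, 6127 and 7002 in WT embryos and 4402, 3870 and 4070 in Dnmt3b-/- embryos, and every Dnmt3b-/- embryo was well below the lowest WT embryo. The level was 0.619 of that in WT, a log2 fold change of -0.69 ± 0.08 (SE; adjusted p = 0.000873, edgeR quasi-likelihood test), with the smallest p of the 9 members. Ehmt1 had normalized counts of 8553, 7766 and 8604 in WT and 7700, 7695 and 7762 in Dnmt3b-/- embryos. The highest Dnmt3b-/- embryo lay just under the lowest WT embryo, and the log2 fold change of -0.11 had a 95% interval of -0.26 to 0.05 (adjusted p = 0.261, edgeR quasi-likelihood test).

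The products of both genes work as a pair, and the FPKM values of both were nearly equal in WT embryos. Ehmt2 made up 49.7%, 49.5% and 50.2% of their summed FPKM in WT embryos 1, 2 and 3 and 41.5%, 38.4% and 39.4% in Dnmt3b-/- embryos, without overlap. The difference was -10.04 percentage points (two-sided exact permutation test, p = 0.1, the smallest possible here, adjusted p = 0.2). With the GC and length trend removed the log2 fold changes of Ehmt2 and Ehmt1 were -0.04 (adjusted p = 0.752, edgeR quasi-likelihood test) and -0.01.

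Setdb1 had the smallest change of the 9 members. Its normalized counts were 7046, 7197 and 6566 in WT embryos and 7096, 7004 and 7165 in Dnmt3b-/- embryos, which overlapped. The log2 fold change of 0.03 had a 95% interval of -0.12 to 0.18 (adjusted p = 0.741, edgeR quasi-likelihood test), and 4.64% of all tested genes changed less. Its exons share 75 bp with Cers2 on the opposite strand, which was counted 4016 to 4634 times in WT and 2189 to 2810 times in Dnmt3b-/- embryos.

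The change between the genotypes moved with the base content of the transcripts over the whole table. The median log2 fold change was 0.32 for the 3351 tested genes with an exonic GC content under 45%, -0.024 for the 7819 genes from 45 to 55% and -0.48 for the 3881 genes over 55%. In the last class 40.1% of the genes were called lower and 3.86% higher, and in the first 1.43% were called lower and 39.5% higher. Ehmt2 has a GC content of 61.1%, above that of 96.8% of all tested genes, and L3mbtl2 one of 55%. Max and E2f6, with 50.1% and 49.6%, are near the middle, and Cbx3 with 39.7% is near the low end.

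**Figure D2:**
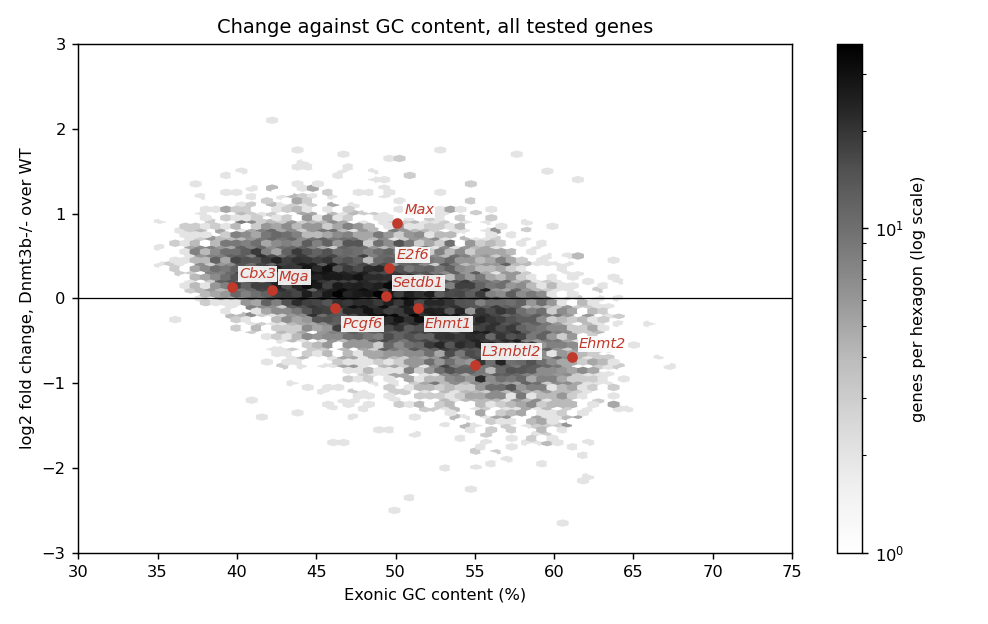
Change from WT to Dnmt3b-/- embryos (log2 fold) against exonic GC content in percent for all tested genes with a matched annotation within the axis limits (grey hexagons, darker for more genes on a log scale), with the 9 repressor genes in red. The cloud falls from left to right. Ehmt2 at 61.1% GC and Max at 50.1% GC and 0.89 both lie within it. Of all tested genes, 86.7% changed less than Max.

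When a trend on GC content and exonic length was removed from each library, Max kept a log2 fold change of 0.89 (adjusted p = 0.0039), E2f6 one of 0.34 (adjusted p = 0.0355) and L3mbtl2 one of -0.46 (adjusted p = 0.00771, edgeR quasi-likelihood test). Ehmt2 lost its call, with a log2 fold change of -0.04 (adjusted p = 0.752). Cbx3 turned from 0.13 to -0.37 and was then called lower (adjusted p = 0.00428), and Mga turned from 0.10 to -0.04 without a call. Pcgf6 moved from -0.11 to -0.28, also without a call (adjusted p = 0.0566, edgeR quasi-likelihood test). The count of 2 members higher and 2 lower was the same, but Cbx3 stood in the place of Ehmt2. This fit called 23.3% of all tested genes, in place of 35.7%. Ehmt1, with a GC content of 51.4%, had a log2 fold change of -0.01 in this fit, so that the difference between the genes of the pair was near 0 there as well. Max, E2f6 and L3mbtl2 were called in the same direction with and without the trend. What gives rise to the trend was not tested.

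**Figure D3:**
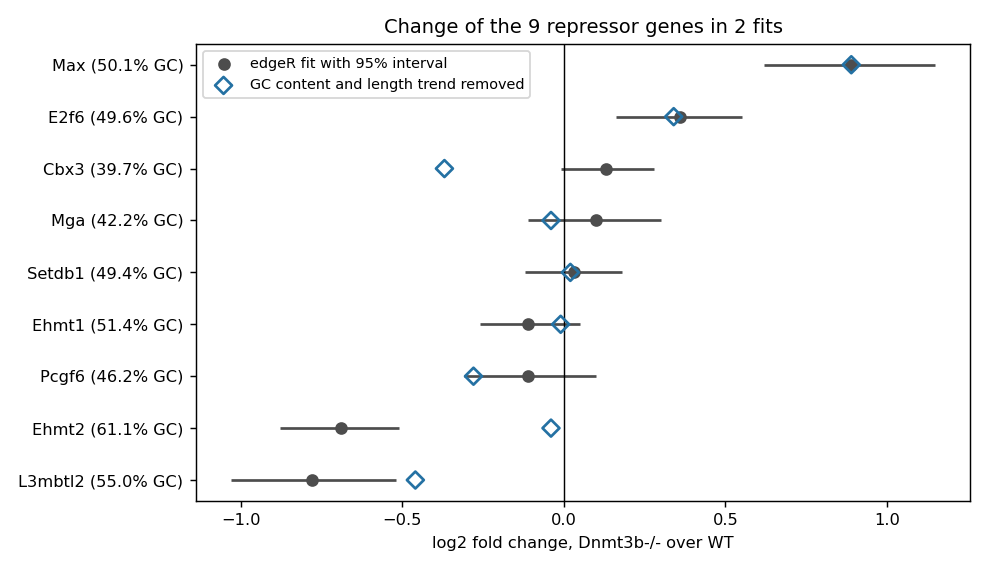
Change from WT to Dnmt3b-/- embryos (log2 fold) of the 9 repressor genes, with their exonic GC content in brackets. Grey points with lines are the edgeR fit with its 95% interval, and open blue diamonds are the same fit after a trend on GC content and exonic length was removed. Max, E2f6 and Setdb1 hardly move between the fits, Ehmt2 moves from -0.69 to -0.04, and Cbx3 from 0.13 to -0.37.

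Other genes of the same pathways were described from 8 lists with 68 genes, of which 66 were tested. Of these, 20 rose and 7 fell, which is 40.9% beside 35.7% of all tested genes, and none of those called changed more than 2-fold. Their median log2 fold change was 0.13, beside -0.03 for all tested genes. The count of 20 was 13 without WT embryo 1, 12 without WT embryo 3, 8 without Dnmt3b-/- embryo 2, 12 without Dnmt3b-/- embryo 3 and 13 with total counts as the only scaling, and 14 with the GC and length trend removed, whereas the count of 7 lower stayed between 6 and 9.

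**Figure D4:**
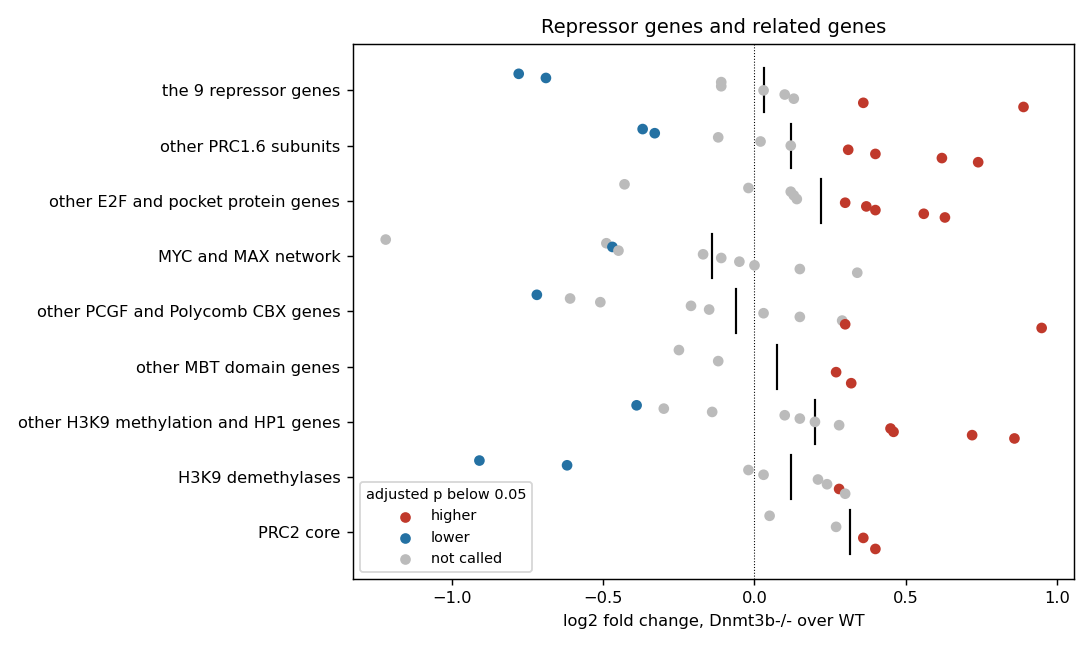
Change from WT to Dnmt3b-/- embryos (log2 fold) for the 9 repressor genes and the tested genes of 8 related lists. Each point is a gene, coloured by its call at an adjusted p below 0.05 (red higher, blue lower, grey not called), the black line is the median of the list, and the vertical position within a list only separates the points. Medians lie between -0.14 and 0.31.

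Of the 9 other subunits of PRC1.6, 4 rose and 2 fell (edgeR quasi-likelihood test, adjusted p below 0.05). That is 66.7% called, beside 35.7% of all tested genes (17.6% higher and 18.1% lower). Yaf2, which bridges RING1 proteins to the complex, rose by a log2 fold change of 0.74 ± 0.08 (SE), and its paralogue Rybp by 0.31 ± 0.10. Rnf2, the gene of the E3 ligase RING1B that ubiquitylates histone H2A, rose by 0.40 ± 0.07, whereas Ring1, which encodes the related RING1A, was not called (-0.12 ± 0.12). The histone deacetylases changed in opposite directions, with Hdac2, the most abundant gene of the list, at 0.62 ± 0.09 and Hdac1 at -0.33 ± 0.07. Wdr5, which encodes a scaffold shared with H3K4 methyltransferases, fell by 0.37. Tfdp1 and Tfdp2, the dimer partners of the E2F proteins, were not called. With the GC and length trend removed, 3 of the subunits were called higher and 2 lower.

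Of the 10 other E2F and pocket protein genes 5 rose and none fell by the edgeR quasi-likelihood test. The genes that rose were Rb1 (log2 fold change 0.56 ± 0.13, SE), Rbl1 (0.30 ± 0.09) and Rbl2 (0.63 ± 0.20), which are the 3 pocket protein genes, and E2f5 (0.37 ± 0.10) and E2f8 (0.40 ± 0.12). Rb1 and Rbl1 have exonic GC contents of 41.2% and 42.0%, in the class where 39.5% of all tested genes were called higher. Rbl2, E2f5 and E2f8, with 47.0%, 46.4% and 51.4%, are in the class where 15.0% were. Their adjusted p-values lay between 0.0131 and 0.037, and the count depended on single embryos. It was 3 without WT embryo 1, 2 without WT embryo 2 (where 1 gene was called lower), 2 without WT embryo 3, 0 without Dnmt3b-/- embryo 2 and 2 without Dnmt3b-/- embryo 3, and it was 2 with the GC and length trend removed or with total counts. The activators E2f1, E2f2 and E2f3 were not called, with log2 fold changes from -0.43 to 0.12.

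Of the 10 other genes of the MYC and MAX network none was called higher and 1 fell by the edgeR quasi-likelihood test. Myc had a log2 fold change of 0.34 ± 0.13 (SE; adjusted p = 0.0687) without overlap between the genotypes. The gene that fell was Mlx, which encodes a MAX-like dimer partner (log2 fold change -0.47 ± 0.14, SE; adjusted p = 0.0329). The call was lost without WT embryo 1, WT embryo 3, Dnmt3b-/- embryo 2 or Dnmt3b-/- embryo 3, and with the Xist level as a covariate. Without WT embryo 2, 2 genes of the list were called lower. Mycn, the most abundant of these genes with 43.7 ± 5.03 FPKM (SD, n = 3) in WT embryos, had a log2 fold change of -0.11 ± 0.10. With the GC and length trend removed 3 genes of this list were called higher and 1 lower, and with DESeq2 1 was called higher.

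Of the 10 other PCGF and Polycomb CBX genes, 2 rose and 1 fell. Bmi1 rose 1.93-fold, from 22.5 ± 4.46 to 43.3 ± 2.09 FPKM (SD, n = 3), a log2 fold change of 0.95 ± 0.14 (SE; adjusted p = 0.0017, edgeR quasi-likelihood test), which is about as large as that of Max. Its exonic GC content is 40.2%, in the class where 39.5% of all tested genes were called higher, whereas that of Max is 50.1%. The share of Pcgf6 given above was not corrected for the trend on GC content and length. Pcgf3 rose by 0.30 ± 0.08, but only 1 gene of this list was called higher without WT embryo 2, WT embryo 3 or Dnmt3b-/- embryo 2. Cbx2, a chromodomain gene of canonical PRC1, fell by 0.72 (adjusted p = 0.00231). Its exonic GC content is 57.1%, in the class where 40.1% of all tested genes were called lower. Of the 6 other genes with MBT domains 4 were tested, and 2 of these rose weakly (Mbtd1 by 0.32 ± 0.09 and Sfmbt1 by 0.27 ± 0.09). The other 2 tested genes, L3mbtl3 and Sfmbt2, had log2 fold changes of -0.12 ± 0.12 and -0.25 ± 0.33 (SE) and were not called, and L3mbtl1 and L3mbtl4, which were under the filter on low counts and not tested, had at most 8.72 and 6.19 normalized counts in any embryo and were lower in every Dnmt3b-/- embryo than in any WT embryo. With any single embryo left out at most 1 of these was called, and with the GC and length trend removed neither was.

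Of the 11 other genes that write or bind H3K9 methylation or work with its writers, 4 rose and 1 fell (edgeR quasi-likelihood test), which is 45.5% beside 35.7% of all tested genes. Their median exonic GC content was 44%, in the class where 39.5% of all tested genes were called higher. Suv39h2, which encodes a writer of H3K9 trimethylation in heterochromatin, rose 1.81-fold (log2 fold change 0.86 ± 0.10, SE; adjusted p = 0.000815). Mphosph8, whose product MPP8 belongs to the HUSH complex that works with SETDB1, rose by 0.72 ± 0.14. Atf7ip, which encodes a cofactor of SETDB1 itself, rose by 0.45 ± 0.08, and Setdb2 by 0.46 ± 0.10. Trim28, the corepressor that brings SETDB1 to zinc finger proteins and the most abundant gene of the list, fell from 298 ± 7.88 to 227 ± 12.4 FPKM (SD, n = 3), a log2 fold change of -0.39 ± 0.07 (adjusted p = 0.00334). The exonic GC content of Trim28 is 59.6%, in the class where 40.1% of all tested genes were called lower. With the GC and length trend removed the counts were 3 higher and 1 lower, and without Dnmt3b-/- embryo 1 there were 2 lower. These counts do not show that the same genes kept their calls.

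Of the 8 H3K9 demethylase genes 2 fell and 1 rose by the same test, which is 37.5% beside 35.7% of all tested genes. Kdm4b, with a level of 0.532 of that in WT, fell by a log2 fold change of 0.91 (adjusted p = 0.000603), and Kdm4a by 0.62 (adjusted p = 0.000602), and 2 genes of the list were called lower with the GC and length trend removed and with any single embryo left out. Kdm4b has an exonic GC content of 58.4%, in the class where 40.1% of all tested genes were called lower, and Kdm4a one of 53.3%. Phf8 rose by 0.28 ± 0.09 (SE), a call that was lost without WT embryo 1, 2 or 3 and without Dnmt3b-/- embryo 2 or 3. Kdm3a, the most abundant, was not called (0.21 ± 0.10). Of the 4 core genes of PRC2, which methylates H3K27, Ezh2 (0.40 ± 0.11) and Eed (0.36 ± 0.08) rose, where 1 gene was called without WT embryo 1, 0 without Dnmt3b-/- embryo 2, 1 without Dnmt3b-/- embryo 3 and 0 with the GC and length trend removed.

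The germline genes whose silencing is the known role of these repressors changed far more than the repressors. A list of 12 such genes, which was written with earlier results of these data known and is a description only, held 10 genes that rose and none that fell, 9 of them more than 2-fold, beside the 17.6% of all tested genes that were called higher and 2.12% that also passed 2-fold. The median log2 fold change was 3.26, and it was 2.84 with the GC and length trend removed, where 9 genes were called higher.

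**Figure D5:**
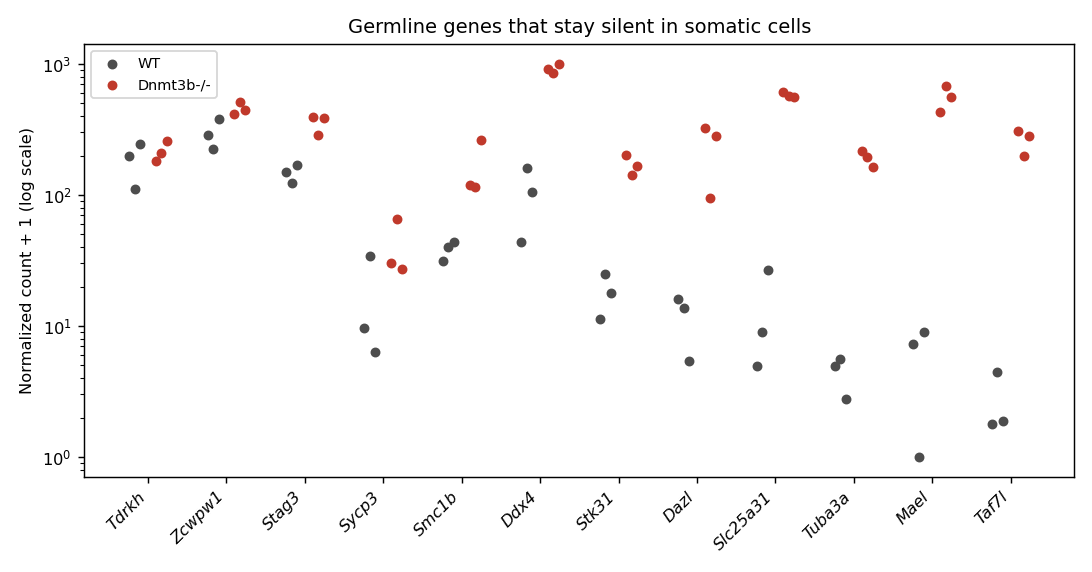
Normalized count plus 1 (log scale) of 12 germline genes in 3 WT (grey) and 3 Dnmt3b-/- (red) embryos, in order of their log2 fold change. Each point is 1 embryo. The genotypes overlap for Tdrkh and Sycp3 and for none of the other 10 genes.

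Mael, which encodes a protein of the piRNA pathway, had normalized counts of 6.34, 0 and 7.96 in WT embryos 1, 2 and 3 and 426, 679 and 558 in Dnmt3b-/- embryos. The log2 fold change was 6.73 ± 0.53 (SE; adjusted p = 0.000412, edgeR quasi-likelihood test). Its promoter, printed above, holds an E-box and 2 E2F sites.

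Slc25a31, a germ cell ADP/ATP carrier gene, had normalized counts of 3.96, 8.04 and 25.7 in WT and 611, 573 and 561 in Dnmt3b-/- embryos. It rose by a log2 fold change of 5.52 ± 0.51 (SE; adjusted p = 0.000491, edgeR quasi-likelihood test). Its promoter holds an E-box 93 bases before the start and an E2F site that begins at base 21 of the transcript.

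Tuba3a, a testis tubulin gene, had normalized counts of 3.96, 4.59 and 1.77 in WT and 217, 195 and 163 in Dnmt3b-/- embryos, with an E2F site but no E-box in its promoter. Its log2 fold change was 5.77 ± 0.39 (SE; adjusted p = 0.000265, edgeR quasi-likelihood test). Taf7l, which encodes a germ cell form of a TFIID subunit, was at or under a limit of 3 counts in all WT embryos, with normalized counts of 0.792, 3.44 and 0.885, and had 306, 196 and 281 in Dnmt3b-/- embryos. Against that limit, taken in each library, it was at least 92.3-fold higher, and its promoter holds an E-box but no E2F site.

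Stag3, a meiotic cohesin gene that E2F6 is known to repress, was less silent at the outset, with normalized counts of 148, 123 and 169 in WT and 390, 285 and 384 in Dnmt3b-/- embryos. It rose 2.40-fold (log2 fold change 1.26 ± 0.21, SE; adjusted p = 0.00287, edgeR quasi-likelihood test). Smc1b, another meiotic cohesin gene, rose by 2.14 ± 0.39 on the log2 scale, and the germ cell RNA-binding protein genes Ddx4 and Dazl by 3.19 ± 0.40 and 4.44 ± 0.60. Dazl had normalized counts of 325, 94.5 and 282 in Dnmt3b-/- embryos 1, 2 and 3, of which embryo 2 was the lowest. Stk31 rose by 3.33 ± 0.37 and Zcwpw1 by 0.62 ± 0.21.

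Tdrkh and Sycp3 did not pass the test. Sycp3, a gene of the synaptonemal complex, had normalized counts of 8.72, 33.3 and 5.31 in WT and 29.1, 64.2 and 26.1 in Dnmt3b-/- embryos, which overlapped at WT embryo 2, and its log2 fold change was 1.36 ± 0.73 (SE; adjusted p = 0.181, edgeR quasi-likelihood test). Tdrkh was present in WT embryos at 110 to 246 and in Dnmt3b-/- embryos at 182 to 256 normalized counts. The summed primordial germ cell markers and Dppa3, given above, overlapped between the genotypes, with the highest values of both in Dnmt3b-/- embryo 3, and their part in the germline values was not tested.

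Of the 12 germline promoters, 7 held the letters GCGGGA, 7 held CACGTG, 5 held both and 9 held at least 1 of them. Of the 11191 tested genes with a promoter, 4396 held the E2F site, 1292 the E-box, 578 both and 5110 at least 1. Among all 27025 genes with a promoter these letters stood in 22.0%, 8.09%, 2.65% and 27.5%, in the same order. The share with an E-box is larger in this list than in both of those sets. This is a description of 12 chosen genes without a test. Of the 55 pathway genes with a promoter, 14 held CACGTG, which is 25.5% beside 58.3% of the germline list. Among the lists of pathway genes this ran from 0 of 4 (PRC2 core) to 4 of 7 (other PCGF and Polycomb CBX genes). The last of these shares, 57.1% of a short list, is about as large as that of the germline list. The promoters of Dazl, Tdrkh and Zcwpw1 held neither GCGGGA nor CACGTG, and these genes had log2 fold changes of 4.44, 0.22 and 0.62.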

How the data were processed

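RNA-Seq was performed on total RNA depleted of ribosomal RNA from whole E8.5 embryos, with stranded libraries and read pairs of 75 bases. The authors used TopHat2 2.0.12 on mm10 and HTSeq 0.6.0 on RefSeq exons, and the raw counts they deposited were used here. The release of RefSeq and whether counting used strand are not given in the sources used here. The deposited normalized signal (count over a DESeq2 1.4.5 size factor), log2 fold change and adjusted p-value of the authors' own comparison were not used.

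The 15114 genes that averaged 10 counts or more were scaled by TMM and fitted in edgeR 4.0.16 (R 4.3.3; quasi-likelihood test), with Benjamini-Hochberg adjustment over all tested genes. FPKM values and GC contents used RefSeq exons of GRCm38.p6, which matched 99.2% of the genes, and counts were divided by exon length and effective library size. Shares were compared by exact permutation tests in scipy 1.17.1. Depth sets a limit of 3 counts, which is 2.38 to 3.5 normalized counts and covers counting error only, as reads without molecular identifiers are not independent molecules. The embryos are few, and the edgeR p-values set the difference between genotypes against the spread between embryos. Methods were also run on simulated counts, in which few genes changed and no trend on GC content or length was built in. That simulation cannot test how well the removal of such a trend works.

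The members and all lists were chosen with earlier results of these data known. Named genes were the members, Dnmt3b, up to 5 called genes by p and the most abundant gene of each list, the most abundant marker, and the genes nearest to E2f6. Rybp, Ring1, Tfdp1, Tfdp2, E2f1 to E2f4, Cbx1, L3mbtl1, L3mbtl3, L3mbtl4, Sfmbt2, Myc, Amn, Nkx2-5, Sox1, Dppa3, Xist, the markers at 0, the genes that overlap members and the germline genes beyond these were named after their values were seen. Alternatives were 2 other filters, DESeq2 size factors and total counts as scaling, DESeq2 1.42.0, limma-trend (limma 3.58.1) with prior counts of 1 and 5, a replicate block, removal of a trend on GC content and length (splines with 5 degrees of freedom each), the Xist level as a covariate, each embryo left out, a 2-fold rule, and shares of raw counts.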

Additional observations from a re-analysis of the deposited data

How the results depend on the processing

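Over all results and alternatives, 542 values were recomputed, of which 471 kept their direction, their side of the threshold and, for counts, stayed within 1.5 times; 57 counts moved further, 8 values changed sign and 6 lost their call. The calls of Max and L3mbtl2 held in all 16 alternatives, with log2 fold changes of 0.76 to 0.98 and -0.85 to -0.46. E2f6 lost its call without WT embryo 1, and Ehmt2 with the GC content and length trend removed. That fit also turned Cbx3 to -0.37 and Mga to -0.04, and gave -0.85 for Dnmt3b (adjusted p = 0.0615, edgeR). Setdb1 turned to -0.05 with total counts and lay between -0.01 (without WT embryo 3) and 0.06 with single embryos left out. With a 2-fold rule added, 0 members were called higher and 0 lower. With total counts 13 pathway genes were called higher; with that scaling the median log2 fold change over the table was -0.106 in place of -0.029, and the share of higher among called genes was 40.1% in place of 49.2%.

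When embryos were left out singly, 1 to 2 members were called higher and 2 to 2 lower, 8 to 21 pathway genes higher and 6 to 9 lower, 9 to 10 germline genes higher and 0 to 0 lower, and Dnmt3b lay between -1.25 and -0.61. These fits called 23.7% to 35.4% of all tested genes. The share of Cbx3 among HP1 genes differed by -0.6 to 0.74 percentage points, among them -0.6, -0.31 and -0.05 without WT embryo 1, Dnmt3b-/- embryo 1 and Dnmt3b-/- embryo 2, and by -0.06 with raw counts. The shares of Pcgf6, E2f6 and Ehmt2 differed by -11.75 to -8.41, 0.41 to 1.48 and -10.9 to -9.36 points.

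A replicate block gave 4411 called genes in place of 5395 and again 2 members higher and 2 lower, with 14 pathway genes higher and 7 lower. Deviations of embryos with the same number correlated at -0.106, -0.224 and -0.009, which gave no sign of pairing by number. With 3 embryos of mixed sex per genotype, these correlations cannot exclude that embryos of the same number shared a litter. The count of all called genes was 3516 with the GC content and length trend removed and 3586 without Dnmt3b-/- embryo 2. With the Xist level as a covariate, 2 members were called higher and 2 lower, and 17 pathway genes higher and 6 lower, beside 33.5% of all tested genes called.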

Other observations

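Among the members, the pattern over the 6 embryos of Ehmt2 was nearest to that of L3mbtl2 and that of Max to E2f6, with root mean square differences of 0.134 and 0.283 in centred log2 counts scaled by library size. Mga and Setdb1 were the nearest pair, with 0.0754. These are descriptions over 6 embryos of 2 genotypes.

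The spread between embryos differed among the members. Ehmt1 varied by 0.482% of its mean in Dnmt3b-/- embryos and by 5.66% in WT embryos, and Setdb1 by 1.14% and 4.75%. Max varied by 15.8% and 8.09%, and L3mbtl2 by 13.0% and 5.61%. These are coefficients of variation over 3 embryos, and the differences between them were not tested.

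The ratio of E2f6 to Mga in FPKM was 0.912, 0.900 and 1.04 in WT embryos 1, 2 and 3 and 1.19, 1.06 and 1.16 in Dnmt3b-/- embryos, which did not overlap.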
